A study of Mus musculus with 6 samples.

Results

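The collagen genes of the mouse were followed in hearts of embryos that lacked Gas2l3 and in wildtype hearts. Members were all genes of the deposited table whose symbol reads Col, a number, a, and a number, and 44 of 24421 genes met that rule. They were sorted by family number into 9 fibrillar genes (Col1, Col2, Col3, Col5 and Col11), 8 basement membrane genes (Col4, Col15 and Col18), 6 Col6 genes and 21 others. Hearts of C57/Bl6 embryos at E18.5, shortly before birth, gave 6 libraries of poly(A) RNA. There were 3 libraries labelled wildtype and 3 labelled Gas2l3 -/-, the latter described only as a deletion of the gene, with no allele or deleted part named. The labels do not say whether each library came from a separate embryo, so every p-value measures the spread between these libraries, which may be technical. Levels are in FPKM, with fragments scaled to transcript length, so levels of different genes can be set side by side. Between libraries they were scaled by a size factor taken from the median gene, not by the library's total. Total FPKM therefore differed, from 429622 in wildtype replicate 1 to 788996 in wildtype replicate 3.

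Collagens are the main structural proteins of the extracellular matrix. Each molecule is a triple helix of chains in which glycine recurs at every step of 3 residues, as the only residue small enough to fit the centre of the helix. Fibrillar collagens assemble into the strong fibres of the heart's interstitium and valves, type IV collagen forms the sheet-like basement membrane around cardiomyocytes and vessels, and type VI collagen forms beaded filaments between fibres and cells. Fibroblasts make most of the fibrillar chains, whereas endothelial and mural cells contribute much of type IV collagen. In RNA from heart tissue, fewer cells of a type and less RNA per cell cannot be told apart.

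The coding sequence shows what separates the fibrillar class from the basement membrane class, and a stretch of each is shown for that reason. Both come from the GENCODE M21 transcripts, read 5′ to 3′, with the glycine codons in capitals.
Col3a1, codons 170 to 193: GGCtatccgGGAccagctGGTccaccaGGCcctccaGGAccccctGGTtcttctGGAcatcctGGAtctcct
Col4a1, codons 151 to 174: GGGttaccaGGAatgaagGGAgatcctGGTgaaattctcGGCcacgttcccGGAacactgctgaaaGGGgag
In Col3a1 all 8 glycine codons of the stretch are separated by 2 other codons, and this pattern runs without a break for 344 units. In Col4a1 the spacing changes within the stretch, from 2 to 3 and then 4 codons between glycines. Over the coding sequence, the longest unbroken run was 40 units in Col4a1 and 66 in Col4a2, with 22 and 24 separate runs of the repeat. All 9 fibrillar genes held a run of 337 to 344 units. The nearest to them were Col24a1 with 216 and Col27a1 with 217 units, which the family number placed among the others.

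A further sequence feature was found in some genes of every class. The miR-29 microRNAs bind collagen transcripts through their seed (bases 2 to 8, in capitals), and the 3 mature sequences from RefSeq (GRCm38.p6) carry the same seed.
mmu-miR-29a-3p: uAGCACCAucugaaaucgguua
mmu-miR-29b-3p: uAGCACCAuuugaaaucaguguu
mmu-miR-29c-3p: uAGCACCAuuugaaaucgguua
The sites below, from the strand of the transcript, show the seed's complement (TGGTGCT, in capitals) in 3 abundant members and in 1 of the members with the smallest p, Col27a1.
Col1a1: gaaggaatttcTGGTGCTatag
Col3a1: aaatgtctcaaTGGTGCTataa
Col4a1: ccgtcacaacaTGGTGCTactc
Col27a1: tgtgaaatcgcTGGTGCTcaca
Of the 26 collagens tested below, 24 had a 3′ UTR in the transcript with the longest coding sequence (Col6a3 and Col18a1 had none there). The motif was present in 15 of these 24 (62.5%), against 14.4% of 11156 tested genes with a 3′ UTR. Among UTRs of 500 to 3000 bases the shares were 65% of 20 collagens and 14.3% of 6284 genes. By class it was present in 6 of 7 fibrillar genes, all but Col1a2, in 5 of 5 basement membrane genes, in 1 of 3 Col6 genes, Col6a2, and in 3 of 9 others, Col16a1, Col26a1 and Col27a1. The other 8 without it were Col6a1, Col6a6, Col8a2, Col9a2, Col12a1, Col13a1, Col14a1 and Col23a1. These matches describe the letters only. The host rows Mir29a, Mir29b-1, Mir29b-2 and Mir29c were listed at 0 in all 6 libraries, and poly(A) libraries do not measure the mature forms.

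The 6 libraries were unequal in ways that touch every result on collagen. Whole reads recovered from the table came to 3414257 to 7732674 a library, and the tested collagens had between 12 and 16023 reads in a library. Gas2l3 itself had reads in all 6 libraries and stood at 2.48 to 10.3 FPKM in the wildtype-labelled libraries and 2.99 to 4.03 FPKM in those labelled Gas2l3 -/-, so its transcript level does not check the labels, and groups are named here as labelled. Wildtype replicate 3 stood apart: over the tested genes with a GC value, deviations of its values from the gene means correlated with transcript GC content at r = 0.70, against -0.48 to -0.07 in the other 5 libraries (a description across genes, which are not independent). The tested collagens were rich in GC, with a median of 56.5% against 50% of all tested genes, and their transcripts were long, with a median of 5883.5 against 2855 bases. Wildtype replicate 3 was the highest library for 19 of the 26 tested collagens, against 37.5% of all tested genes.

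Of the 44 collagens, 26 were tested, along with every other gene that had 1 FPKM or more in 3 or more libraries, 12121 in total. These were 7 fibrillar, 6 basement membrane, 4 Col6 and 9 other genes. The remaining 18 were too low to test and are described at the end. A few genes made up most of the collagen transcript level: Col3a1, Col1a1, Col1a2, Col4a1 and Col4a2 held 70.1% to 75.8% of the summed collagen FPKM in each library.

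**Figure D1:**
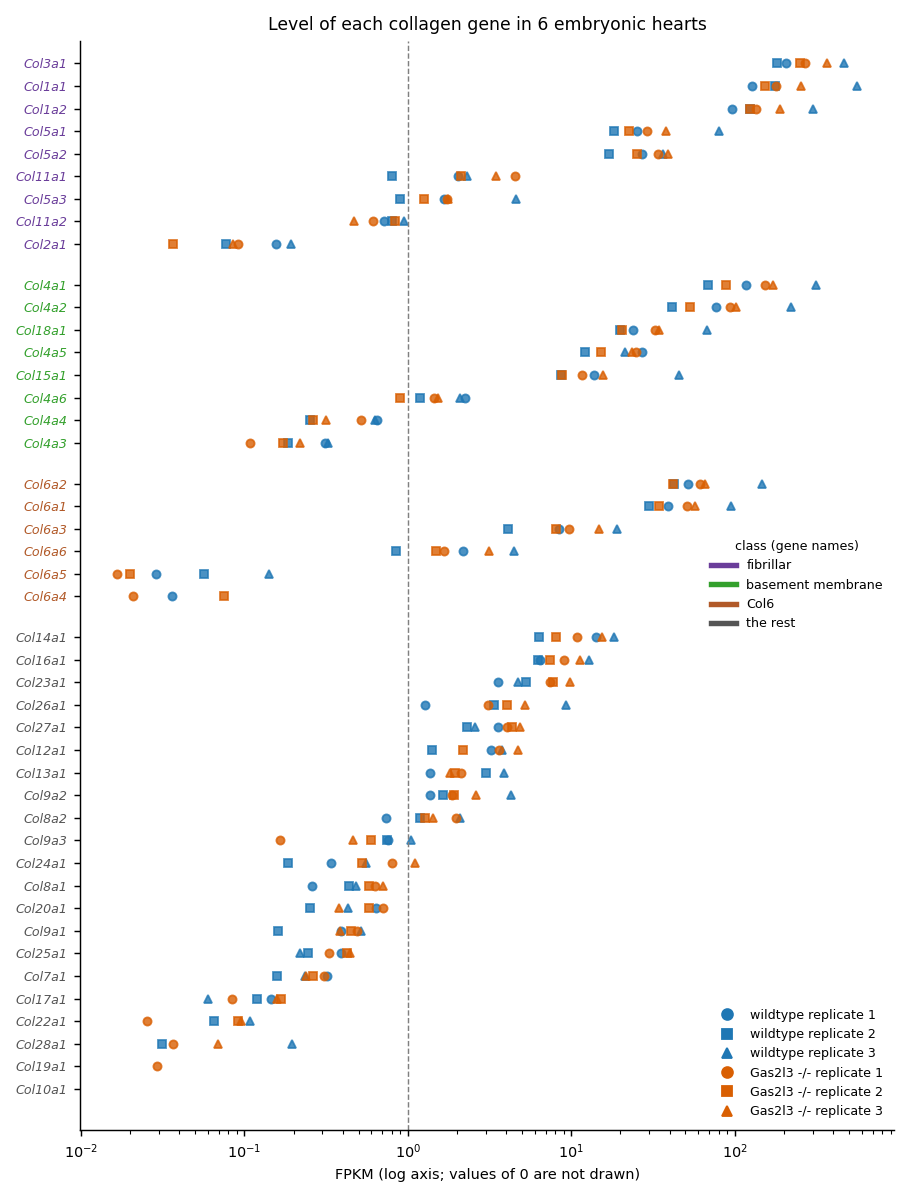
Level of each of the 44 collagen genes in FPKM (log axis) in the 6 libraries, ordered by class and mean level; blue marks wildtype, orange Gas2l3 -/-, and the shape gives the replicate number. The dashed line is 1 FPKM, levels span from 0 for Col10a1 to 564 FPKM for Col1a1, and the blue triangle, wildtype replicate 3, is the rightmost point of 19 of the 26 tested genes.

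The summed level of the family showed no separation of the groups. It was 891, 783 and 2459 FPKM in wildtype replicates 1, 2 and 3, and 1141, 895 and 1441 FPKM in Gas2l3 -/- replicates 1, 2 and 3. Wildtype replicate 3 was the highest and wildtype replicate 2 the lowest, so the wildtype libraries spanned those of the other group. The wildtype mean was 1378 ± 938 FPKM (SD, n = 3) and the Gas2l3 -/- mean 1159 ± 273 FPKM (SD, n = 3). As a share of all FPKM in the same library, collagen took 0.207%, 0.130% and 0.312% in the wildtype and 0.25%, 0.142% and 0.296% in the Gas2l3 -/- libraries. On that scale the libraries lined up by replicate number, with number 2 lowest and number 3 highest in both groups.

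No collagen passed the test (limma on log2(FPKM + 0.5), Benjamini-Hochberg adjusted p under 0.05 over all 12121 genes), and neither did any other gene, so 0% of all tested genes were called. The mean was higher in Gas2l3 -/- hearts for 11 of 26 collagens, against 49% of all genes. The median log2 fold change was -0.053 over the collagens and -0.0089 over all genes. An unadjusted p under 0.05 was found for 2 collagens, against 3.25% of all genes. Limma voom on the recovered reads called no collagen and gave 3 an unadjusted p under 0.05. The same 2 genes, Col23a1 and Col27a1, were the only tested collagens whose groups did not overlap. Both were higher, where 5.02% of all genes did not overlap in that direction and 4.74% in the other, in which there was no collagen.

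These directions depended on single libraries, and most on wildtype replicate 3. Without Gas2l3 -/- replicate 2, 19 of 26 collagens had higher means, against 50.9% of all genes, with a median of 0.14. Without wildtype replicate 2, 7 of 26 did, against 46.2%, with a median of -0.24. Without wildtype replicate 3, 24 of 26 collagens had higher means in the Gas2l3 -/- hearts, against 50.1% of all genes, and the collagen median was 0.43 against 0.00048 for all genes. Of the 15 collagens with lower means, 13 then had higher ones, and Col4a6 and Col13a1 remained lower. No collagen was called in that fit either, and 2 had an unadjusted p under 0.05, where 4.44% of all genes did. With all 6 libraries and the trends on GC content and length removed from each, 20 of 26 had higher means, against 48.5% of all genes, with a median of 0.17. There the count at an unadjusted p under 0.05 was 4, against 7.83% of all genes, and again no collagen was called, as against 0.00854% of all genes. With the replicate number as a block, 3 collagens had an unadjusted p under 0.05, against 6.01% of all genes, and 5 did with the GC and length trends removed as well, against 11%. With libraries weighted by their spread, 25 of 26 were higher, against 47.9% of all genes, and 9 had an unadjusted p under 0.05, against 9.59%. There 0.0165% of all genes were called and no collagen. That fit leaned on Gas2l3 -/- replicate 3 (weight 5.26) and wildtype replicate 2 (weight 1.68), with 0.16 for wildtype replicate 3. The first had the highest summed collagen level of the Gas2l3 -/- libraries and the second the lowest of the wildtype. With the block and without wildtype replicate 3, 22 were higher, against 52.3%, and 7 had an unadjusted p under 0.05, against 10.7%, and of the 0.272% of all genes called none was a collagen. With the trends removed and without that library, 24 were higher, against 46.9%, and 7 had an unadjusted p under 0.05, against 8.5%. Those last 2 settings were chosen after seeing the data. The part that GC content and the state of wildtype replicate 3 have in the collagen differences was not tested.

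**Figure D2:**
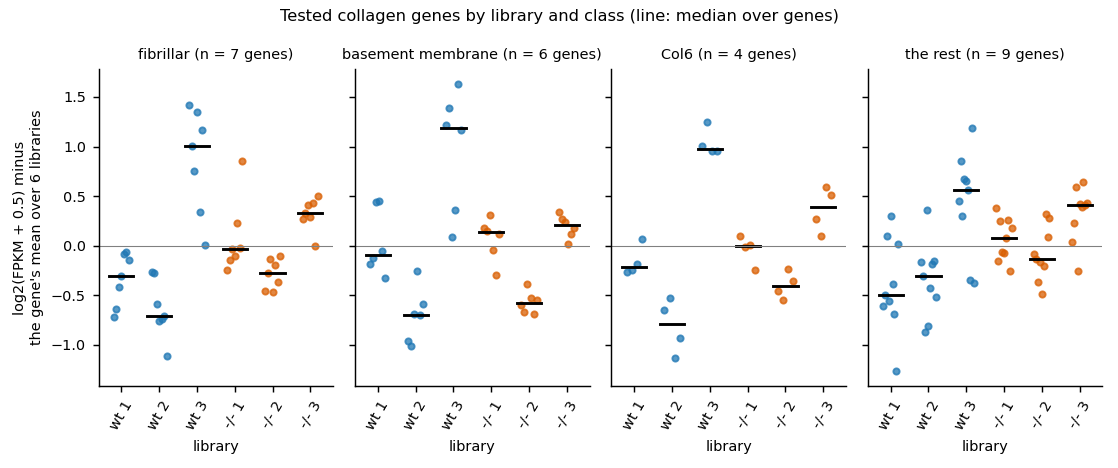
Each point is a tested collagen gene in a library, as log2(FPKM + 0.5) minus that gene's mean over the 6 libraries, by class; lines are medians over the genes, blue is wildtype and orange Gas2l3 -/-. Wildtype replicate 3 lies highest in every class, with medians of 0.56 to 1.19, and wildtype replicate 2 lies lowest in every class but the others, where wildtype replicate 1 does.

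**Figure D3:**
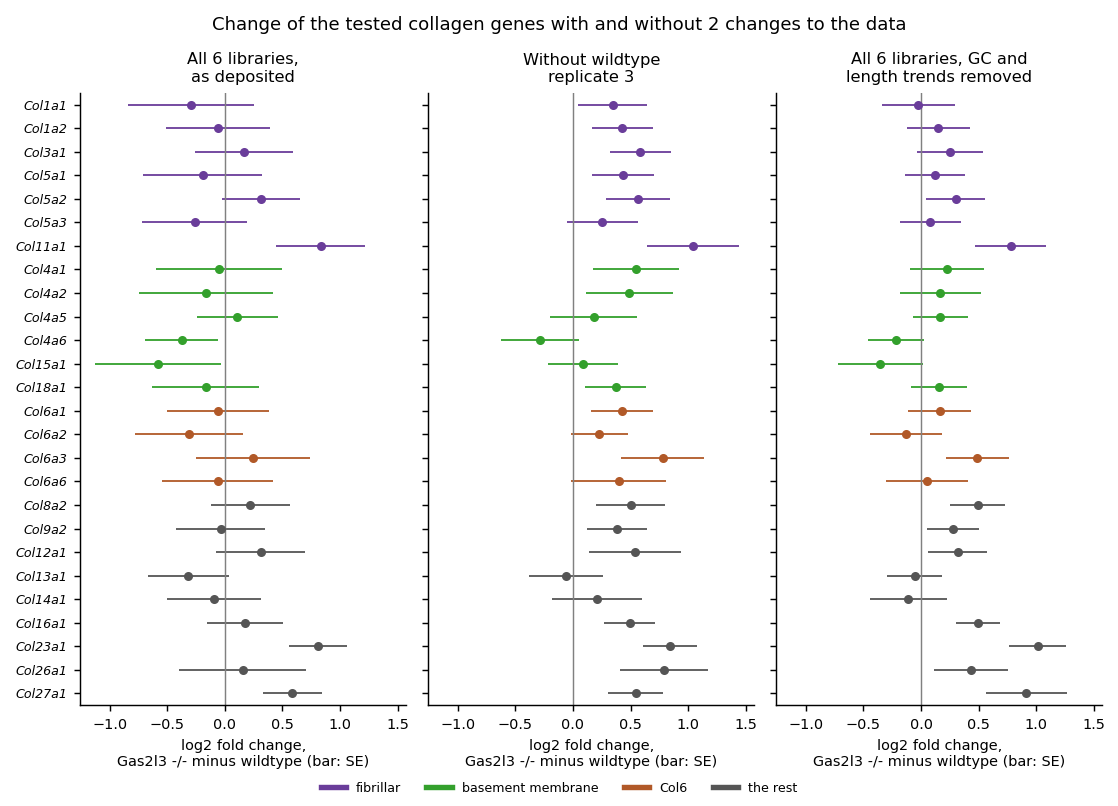
Log2 fold change of each tested collagen, Gas2l3 -/- minus wildtype, with its standard error, from all 6 libraries as deposited, without wildtype replicate 3, and with the GC and length trends removed. Points of the fibrillar, basement membrane and Col6 classes lie on both sides of 0 on the left, and 24 of all 26 lie above 0 in the middle.

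The fibrillar genes gave the most abundant transcripts. Their median log2 fold change was -0.058, with 3 of 7 tested genes higher. Without wildtype replicate 3 all 7 were higher, with a median of 0.43, and none was called in either fit.

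Col3a1 (chromosome 1, 45311538 to 45349706, mm10, ENSMUSG00000026043), the chain of type III collagen in compliant tissues, was the highest collagen on average. It stood at 206, 182 and 464 FPKM in wildtype replicates 1 to 3 and at 268, 251 and 365 FPKM in Gas2l3 -/- replicates 1 to 3. The groups overlapped, since wildtype replicate 3 exceeded every other library while wildtype replicates 1 and 2 lay below all 3 Gas2l3 -/- libraries. The groups differed by 0.17 (SE 0.43) on the log2 scale, with an adjusted p of 0.966 in limma, and by 0.59 (SE 0.27) without wildtype replicate 3.

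Col1a1 (chromosome 11, 94936224 to 94953042) and Col1a2 (chromosome 6, 4504814 to 4541544) encode the chains of type I collagen, the bulk protein of tendon, bone and cardiac interstitium. Col1a1 stood at 128, 176 and 564 FPKM in the wildtype and 178, 153 and 253 FPKM in the Gas2l3 -/- libraries. Col1a2 stood at 95.8, 124 and 301 FPKM in the wildtype and 136, 124 and 188 FPKM in the Gas2l3 -/- libraries. In both genes wildtype replicate 3 was far above the rest, and the other 5 libraries formed an overlapping range. The log2 fold changes were -0.29 (SE 0.55) for Col1a1 and -0.058 (SE 0.45) for Col1a2, and both turned positive without that library, at 0.34 (SE 0.30) and 0.43 (SE 0.27).

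The type V and type XI chains enter the same fibrils in small amounts and set where a fibril starts and how thick it grows. Col5a1 stood at 25.3, 18.3 and 80.4 FPKM in the wildtype and 29.0, 22.5 and 38.3 FPKM in the Gas2l3 -/- libraries. Col5a2, its partner in the same heterotrimer, stood at 27.2, 17.1 and 36.6 FPKM in the wildtype and 33.8, 25.1 and 38.9 FPKM in the Gas2l3 -/- libraries. Col5a2 was higher in the Gas2l3 -/- library of each same-numbered pair, with overlapping groups and a log2 fold change of 0.31 (SE 0.34), or 0.024 without wildtype replicate 2. Col5a3, the third type V chain, ranged from 0.893 to 4.59 FPKM, again with wildtype replicate 3 on top.

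Col11a1 (chromosome 3, 114030540 to 114220718, ENSMUSG00000027966), best known from cartilage and also made in developing heart valves, had the largest log2 fold change of the 26 tested collagens. It stood at 2.03, 0.800 and 2.31 FPKM in the wildtype and 4.56, 2.10 and 3.46 FPKM in the Gas2l3 -/- libraries, from 44 to 213 reads a library. The groups overlapped only because Gas2l3 -/- replicate 2 lay between the wildtype values, and in each same-numbered pair the Gas2l3 -/- library was the higher. The means were 1.71 ± 0.804 and 3.37 ± 1.23 FPKM (SD, n = 3 each). The log2 fold change was 0.83 (SE 0.39), with an unadjusted p of 0.061 and an adjusted p of 0.966 in limma. Its GC content, 48.0%, is the lowest of the tested collagens, and the change was 0.78 (SE 0.31) with the GC and length trends removed and 1.04 (SE 0.40) without wildtype replicate 3.

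The basement membrane genes had the lowest class median, -0.16, with 1 of 6 tested genes higher. Without wildtype replicate 3 the median was 0.28 and 5 of 6 were higher, and with the GC and length trends removed it was 0.16 with 4 of 6 higher. None was called in the 3 fits.

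Col4a1 and Col4a2 encode the chains found in nearly all basement membranes. They lie head to head on chromosome 8 of mm10, with annotated starts 21 bases apart (Col4a1 starts at 11312826 on the minus strand and Col4a2 at 11312805 on the plus strand). Their first bases therefore overlap, and without strand reads from that short stretch cannot be told apart. Col4a1 stood at 118, 69.0 and 313 FPKM in the wildtype and 153, 88.5 and 171 FPKM in the Gas2l3 -/- libraries. Col4a2 stood at 77.3, 41.6 and 222 FPKM in the wildtype and 94.1, 53.0 and 102 FPKM in the Gas2l3 -/- libraries. In both, number 2 was the lowest and number 3 the highest library of each group. Their log2 fold changes were -0.049 (SE 0.55) and -0.16 (SE 0.58), or 0.55 (SE 0.37) and 0.49 (SE 0.38) without wildtype replicate 3.

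Col4a5 and Col4a6, the X-linked chains of more restricted basement membranes, also start close together, 1309 bases apart on chromosome X. Col4a5 stood at 27.2, 12.2 and 21.3 FPKM in the wildtype and 24.8, 15.2 and 23.6 FPKM in the Gas2l3 -/- libraries, a log2 fold change of 0.11 (SE 0.35). Col4a6 stood at 2.25, 1.19 and 2.08 FPKM in the wildtype and 1.45, 0.897 and 1.53 FPKM in the Gas2l3 -/- libraries, from 32 to 84 reads. Col4a6 was the only tested collagen that was lower in the Gas2l3 -/- library of all 3 pairs, at -0.37 (SE 0.32), with overlapping groups.

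Col15a1 and Col18a1 encode the multiplexins, which link basement membranes to the matrix beneath and carry long stretches without the glycine repeat. Col15a1 stood at 13.8, 8.64 and 45.7 FPKM in the wildtype and 11.6, 8.73 and 15.6 FPKM in the Gas2l3 -/- libraries. Its fold change of -0.58 (SE 0.55) was the lowest of the 26 tested collagens and rested on wildtype replicate 3, without which it was 0.090 (SE 0.30). Col18a1, the source of the fragment endostatin, stood at 23.9, 19.9 and 68.1 FPKM in the wildtype and 32.7, 20.4 and 34.2 FPKM in the Gas2l3 -/- libraries. It moved from -0.17 (SE 0.47) to 0.37 (SE 0.27) without that library.

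The Col6 genes gave a median of -0.061, with 1 of 4 tested genes higher, and of 0.41 with all 4 higher without wildtype replicate 3. Col6a1 stood at 39.4, 30.0 and 95.6 FPKM in the wildtype and 50.8, 34.3 and 57.4 FPKM in the Gas2l3 -/- libraries. Col6a2 stood at 51.9, 42.6 and 147 FPKM in the wildtype and 61.1, 41.9 and 65.7 FPKM in the Gas2l3 -/- libraries. Both chains are short, lie near each other on chromosome 10, and join with a longer chain to make the type VI monomer. That longer chain, Col6a3, stood at 8.44, 4.11 and 19.1 FPKM in the wildtype and 9.70, 8.11 and 14.7 FPKM in the Gas2l3 -/- libraries. Its log2 fold change was 0.24 (SE 0.49), 0.78 (SE 0.36) without wildtype replicate 3 and -0.27 without wildtype replicate 2. Col6a6 ranged from 0.846 to 4.44 FPKM with overlapping groups.

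The 9 other tested collagens had the highest class median, 0.17, with 6 of 9 higher, and held both genes whose groups did not overlap. Without wildtype replicate 3 the median was 0.50 with 8 of 9 higher, and with the GC and length trends removed it was 0.43 with 7 of 9 higher.

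Col23a1 (chromosome 11, 51289920 to 51583918, ENSMUSG00000063564) encodes a transmembrane collagen whose ectodomain can be shed from the cell surface. It stood at 3.58, 5.32 and 4.70 FPKM in the wildtype and 7.41, 7.71 and 9.80 FPKM in the Gas2l3 -/- libraries, from 76 to 383 reads. Every Gas2l3 -/- library was above every wildtype library, and wildtype replicate 3 was not high in this gene. The means were 4.54 ± 0.882 and 8.31 ± 1.30 FPKM (SD, n = 3 each). The log2 fold change was 0.81 (SE 0.25), the smallest p of the family, 0.011 unadjusted and 0.966 adjusted over all genes (limma). It was 0.84 (SE 0.24) without wildtype replicate 3 and 1.01 (SE 0.24) with the GC and length trends removed, and between 0.67 and 0.92 when each library was left out in turn.

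Col27a1 (chromosome 4, 63214004 to 63334991, ENSMUSG00000045672), whose chain forms thin fibrils in cartilage and developing tissues, stood at 3.54, 2.30 and 2.59 FPKM in the wildtype. In the Gas2l3 -/- libraries it stood at 4.03, 4.35 and 4.89 FPKM, so that the groups did not overlap, though wildtype replicate 1 lay close to Gas2l3 -/- replicate 1. The log2 fold change was 0.59 (SE 0.25), with an unadjusted p of 0.048 and an adjusted p of 0.966 (limma). It was 0.55 (SE 0.24) without wildtype replicate 3, where its unadjusted p no longer passed 0.05, and 0.91 (SE 0.35) with the GC and length trends removed.

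Col16a1, which associates with fibrils and with basement membranes, stood at 6.42, 6.25 and 12.8 FPKM in the wildtype and 9.04, 7.38 and 11.3 FPKM in the Gas2l3 -/- libraries. Its log2 fold change was 0.17 (SE 0.33), 0.49 both without wildtype replicate 3 (SE 0.22) and with the GC and length trends removed (SE 0.19), and 0.0029 without wildtype replicate 2. With the trends removed its groups did not overlap, and neither did those of Col8a2, Col23a1 and Col27a1, all higher, as for 6.61% of all genes.

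Col12a1 and Col14a1 encode collagens that coat fibrils rather than form them. Col12a1 stood at 3.22, 1.41 and 3.77 FPKM in the wildtype and 3.61, 2.19 and 4.73 FPKM in the Gas2l3 -/- libraries, higher in the latter in all 3 pairs at 0.31 (SE 0.39). Col14a1 stood at 14.2, 6.33 and 18.3 FPKM in the wildtype and 10.9, 8.04 and 15.5 FPKM in the Gas2l3 -/- libraries, at -0.096 (SE 0.41). Col26a1 varied most among the libraries of all tested collagens, 7.24-fold, at 1.28, 3.36 and 9.29 FPKM in the wildtype and 3.09, 4.05 and 5.20 FPKM in the Gas2l3 -/- libraries, from 13 to 153 reads. The remaining 3 tested genes were low, with overlapping groups: Col13a1 ranged from 1.36 to 3.87 FPKM, Col9a2 from 1.37 to 4.28 FPKM and Col8a2 from 0.737 to 2.08 FPKM. Col8a2, of the short-chain network collagens, was at 0.22, and at 0.49 with the GC and length trends removed.

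**Figure D4:**
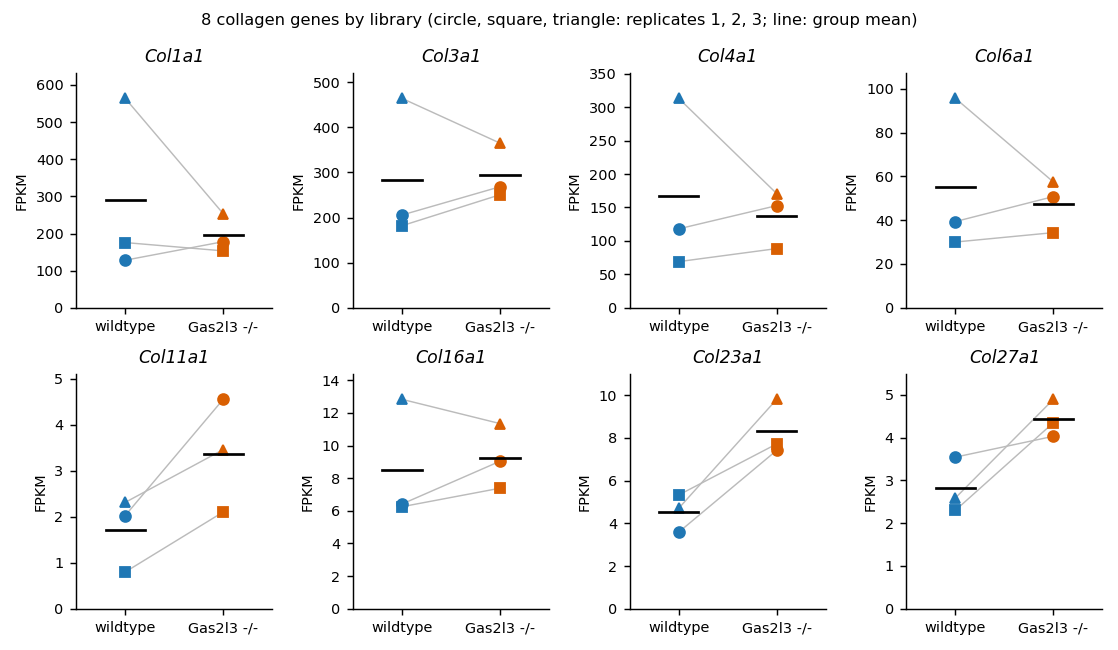
FPKM of 8 collagen genes in each library, with lines joining libraries of the same replicate number and bars at the group means. In Col1a1, Col3a1, Col4a1, Col6a1 and Col16a1 the wildtype triangle (replicate 3) is the highest point, while in Col23a1 and Col27a1 all Gas2l3 -/- points lie above all wildtype points.

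Ratios of 2 collagen genes within a library do not depend on how libraries are scaled to each other, and 8 ratios had both genes tested. Most set chains of the same collagen type side by side, but Col3a1 to Col1a1 and Col15a1 to Col18a1 set different types side by side. With 3 libraries against 3, the exact two-sided permutation test cannot give a p below 0.1, so no ratio could pass 0.05. The ratio of Col4a5 to Col4a6 was 12.1, 10.2 and 10.2 in the wildtype and 17.1, 16.9 and 15.4 in the Gas2l3 -/- libraries. The groups did not overlap, and the means were 10.8 ± 1.08 and 16.5 ± 0.938 (SD, n = 3 each). The difference was 0.61 on the log2 scale (exact permutation p = 0.1, adjusted over 8 ratios p = 0.267). The ratio of Col6a1 to Col6a2 also separated the groups, at 0.759, 0.705 and 0.653 in the wildtype and 0.831, 0.818 and 0.873 in the Gas2l3 -/- libraries. This was a log2 difference of 0.26 (exact permutation p = 0.1, adjusted p = 0.267). Both ratios were higher in all 3 same-numbered pairs, and the differences were 0.38 and 0.29 with the GC and length trends removed. Those came from the log2 scale of the limma fit, which adds a constant to FPKM, whereas 0.61 and 0.26 came from FPKM alone. The change from 0.61 to 0.38 therefore mixes the scale with the trends. On the limma scale Col4a5 and Col4a6 were at 0.11 and -0.37 before the trends were removed and at 0.17 and -0.22 after.

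The other 6 ratios overlapped between groups, with exact permutation p of 0.2 or 0.3. Of these, 4 differed in 1 direction in all 3 same-numbered pairs. Col1a1 to Col1a2, Col5a1 to Col5a2 and Col15a1 to Col18a1 were lower in the Gas2l3 -/- library of each pair, and Col4a1 to Col4a2 was higher. Col3a1 to Col1a1 and Col6a3 to Col6a1 were higher in 2 of 3 pairs. Over 3 pairs, flipping signs exactly gives a permutation p of 0.25 at the smallest, which the 6 ratios with 1 direction in all pairs reached. Type I collagen is built from 2 chains of Col1a1 and 1 of Col1a2, and the transcript ratio lay between 1.24 and 1.87. Col4a1 to Col4a2 stayed between 1.41 and 1.67 in all libraries, although Col4a1 itself varied 4.54-fold among them. Col5a1 to Col5a2 was 2.20 in wildtype replicate 3 and 0.859 to 1.08 elsewhere. Col3a1 to Col1a1, of different collagen types, was 0.823 in that library and 1.04 to 1.63 elsewhere, so the FPKM of these genes were not raised equally there. With the GC and length trends removed, Col5a1 and Col5a2 were at 5.46 and 5.25 in wildtype replicate 3 on the log2 scale. For both ratios the gap between the genes then lay between those of wildtype replicates 1 and 2. It was still wider than in every Gas2l3 -/- library for Col5a1 to Col5a2, and narrower for Col3a1 to Col1a1.

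**Figure D5:**
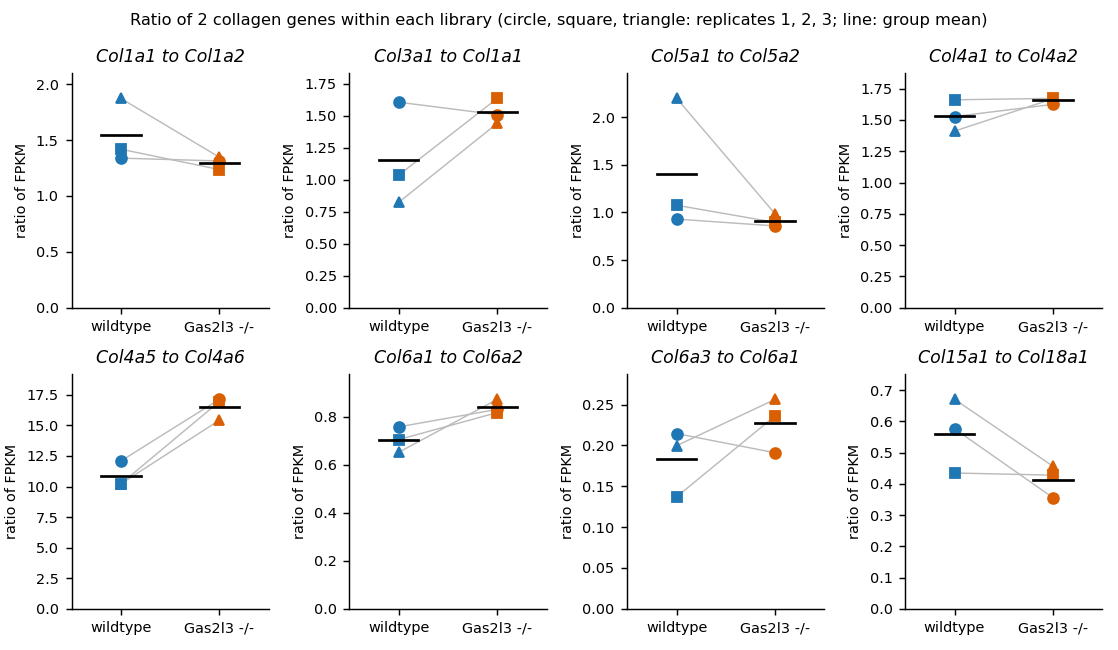
Ratio of FPKM of 2 collagen genes within each library, with lines joining libraries of the same replicate number and bars at the group means. The wildtype and Gas2l3 -/- points are separate for Col4a5 to Col4a6 (10.2 to 12.1 against 15.4 to 17.1) and Col6a1 to Col6a2 (0.653 to 0.759 against 0.818 to 0.873) and overlap in the other 6 panels.

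Genes that make, process, break down or bind collagen were read from 7 lists in the same limma fit, and none of their members was called. Over all genes in that fit, 49% had higher means, and 5.02% were higher and 4.74% lower without overlap. In the cell, chains are hydroxylated and folded in the endoplasmic reticulum before export. Of 19 such genes tested, 10 were higher, with a median log2 fold change of 0.078. The collagen chaperone Serpinh1 stood at 312, 330 and 711 FPKM in the wildtype and 360, 346 and 416 FPKM in the Gas2l3 -/- libraries, high in wildtype replicate 3 like the fibrillar genes. The prolyl hydroxylase subunit P4ha1 was at 0.38 (SE 0.30), the lysyl hydroxylase Plod2 at 0.51 (SE 0.38) and the prolyl 3-hydroxylase P3h2 at 0.55 (SE 0.37), all with overlapping groups. The folding enzyme Fkbp14 stood at 12.5, 10.8 and 5.88 FPKM in the wildtype and 15.1, 19.0 and 16.6 FPKM in the Gas2l3 -/- libraries. Its groups did not overlap, at 0.82 (SE 0.31), or 0.52 without wildtype replicate 3, the lowest library. Tmem38b, a channel of the endoplasmic reticulum, was at 0.59 (SE 0.40) and at 0.12 without that library.

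Of 9 genes of procollagen export, 7 were higher, with a median of 0.15. Trappc2 was at 0.89 (SE 0.48) without overlap, Sar1b at 0.76 (SE 0.42) and Sec23a at 0.33 (SE 0.30). Wildtype replicate 3 was the lowest library for these 3 genes, and without it they were at 0.27, 0.42 and 0.14. Of 5 genes that remove the propeptides, 2 were higher, with a median of -0.0063. Adamts2, the amino-terminal protease, was at 0.36 (SE 0.42), Adamts14 at 0.074 (SE 0.38) and the enhancer Pcolce at -0.22 (SE 0.39). Without wildtype replicate 3 these were at 0.81, 0.45 and 0.21.

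Outside the cell, chains are crosslinked and fibrils are spaced by small proteoglycans. Of 15 such genes, 12 were higher, with a median of 0.30. Without wildtype replicate 3, 15 of 15 were higher (median 0.60), against 50.1% of all genes. With the GC and length trends removed, 15 of 15 were higher (median 0.36), against 48.5% of all genes. None was called, and 3.25% of all genes had an unadjusted p under 0.05, as 2 of these did. Counts also rose in the other lists without wildtype replicate 3. There 17 of 19 folding, 8 of 9 export and 4 of 5 propeptide genes were higher. So were 11 of 11 breakdown, 7 of 8 receptor and 16 of 20 regulator genes. With the trends removed they were 16 of 19, 7 of 9, 3 of 5, 8 of 11, 4 of 8 and 13 of 17. Lox, which crosslinks fibrils, stood at 7.55, 6.46 and 8.83 FPKM in the wildtype and 10.7, 10.5 and 17.9 FPKM in the Gas2l3 -/- libraries, with no overlap and a log2 fold change of 0.70 (SE 0.28). Lum, a proteoglycan that limits fibril thickness, stood at 39.4, 32.8 and 20.5 FPKM in the wildtype and 42.9, 80.7 and 55.3 FPKM in the Gas2l3 -/- libraries, at 0.94 (SE 0.35). Postn was at 0.81 (SE 0.40) and Sparc at 0.17 (SE 0.38), both with overlapping groups, and Sparc was at 0.42 without wildtype replicate 3.

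Of 11 genes of collagen breakdown and its inhibitors, 7 were higher, with a median of 0.18. Ctsk, a protease that cuts the triple helix, stood at 10.6, 9.24 and 8.83 FPKM in the wildtype and 13.0, 19.5 and 22.0 FPKM in the Gas2l3 -/- libraries, with no overlap at 0.86 (SE 0.27). Fap was at 0.57 (SE 0.47) and Mmp15 at -0.44 (SE 0.41), or 0.20 and 0.033 without wildtype replicate 3. Of 8 collagen receptors, 4 were higher, with a median of 0.019. Adgrg6, an adhesion receptor that binds type IV collagen, stood at 3.24, 3.98 and 2.98 FPKM in the wildtype and 9.06, 6.74 and 9.97 FPKM in the Gas2l3 -/- libraries. The groups did not overlap, at 1.21 (SE 0.25), and with limma its p after adjustment was 0.966. The integrin chain Itgb1 was at 0.68 (SE 0.36) and the receptor kinase Ddr1 at -0.64 (SE 0.39), or 0.46 and -0.21 without wildtype replicate 3. Of 20 regulators of collagen transcription, 12 were higher, with a median of 0.10. Ctgf stood at 78.6, 81.0 and 74.6 FPKM in the wildtype and 148, 135 and 114 FPKM in the Gas2l3 -/- libraries, at 0.75 (SE 0.27). Smad7 was at 0.47 (SE 0.23) and Sox9 at 0.43 (SE 0.23), also without overlap.

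Markers of the cells that make collagen differed between the libraries too, though no marker was called. Beside the marker counts below, 5.02% of all genes were higher and 4.74% lower without overlap. The summed level of 10 fibroblast markers, led by Postn and Dcn, ranged from 438 to 556 FPKM in the wildtype and from 737 to 766 FPKM in the Gas2l3 -/- libraries. Of these, 8 of 10 were higher (median 0.35), 2 of them, Lum and Tcf21, without overlap. The fibroblast list shares 5 of its 10 genes with the lists above: Lum, Postn and Dcn with crosslinking, Ddr2 with the receptors and Pdgfra with the regulators. The sum for 10 cardiomyocyte markers, led by Myl2 and Actc1, was 36195 to 53102 FPKM in the wildtype and 31857 to 36890 FPKM in the Gas2l3 -/- libraries, with 9 of 10 lower and none without overlap.

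Macrophage markers summed to 71.1 to 160 FPKM in the wildtype and 110 to 171 FPKM in the Gas2l3 -/- libraries, with 9 of 11 tested higher (median 0.23). The groups did not overlap for 3 of them, Lyz2 at 1.43 (SE 0.43), Ly86 at 1.01 (SE 0.32) and Adgre1 at 0.50 (SE 0.28), whereas C1qb was at -0.085. Endothelial markers summed to 387 to 858 FPKM against 471 to 563 FPKM, with 5 of 10 higher. Emcn, a sialoglycoprotein of venous and capillary endothelium, was higher without overlap at 1.08 (SE 0.30), and Egfl7 was at -0.40. Smooth muscle and pericyte markers, led by Acta2 and Des, summed to 757 to 1505 FPKM against 776 to 1106 FPKM, with wildtype replicate 3 highest as in the endothelial sum. Epicardial markers, led by Upk3b and Msln, summed to 94.6 to 192 FPKM against 139 to 157 FPKM. Valve and cartilage-like markers, led by Scx and Sox9, summed to 16.2 to 53.2 FPKM against 19.5 to 31.0 FPKM.

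Skeletal muscle markers, mostly Ckm, which heart muscle also expresses, summed to 1351 to 3551 FPKM against 1211 to 1314 FPKM. All 4 tested members were lower, Ckm at -0.63 (SE 0.49) and Tnnt3 at -1.14 (SE 0.41) without overlap, Mylpf at -1.01 (SE 0.60) and Tnni2 at -1.01 (SE 0.65) with overlap. Mylpf ranged from 5.21 to 37.7 FPKM and Tnni2 from 2.10 to 17.8 FPKM, while Myod1 and Myf5 were listed at 0 and Myog reached 0.266 FPKM. Neural markers summed to at most 8.86 FPKM, with both tested genes lower, Dbh without overlap at -0.83 (SE 0.38) and Stmn2 at -0.34. Markers of lung, liver and thymus summed to at most 13.1 FPKM and differed by library through the liver genes. Alb stood at 7.60, 0.388 and 0 FPKM in the wildtype and 7.37, 4.20 and 0 FPKM in the Gas2l3 -/- libraries. Afp stood at 2.44, 0.0633 and 0 FPKM against 2.46, 1.25 and 0 FPKM, and Apoa1 was highest in Gas2l3 -/- replicate 1, at 3.13 FPKM. Sftpa1, Nkx2-1 and Cd3e were listed at 0. Tcf21, Ly86, Adgre1, Tnnt3, Tnni2, Myog and Apoa1 were named after their values were seen. Without wildtype replicate 3, 10 of 10 fibroblast, 10 of 10 endothelial and 11 of 11 macrophage markers were higher, against 50.1% of all genes. So were 9 of 10 smooth muscle and pericyte, 7 of 9 epicardial and 3 of 4 valve and cartilage-like markers. Of the lung, liver and thymus markers 1 of 2 was higher, and no tested cardiomyocyte, skeletal muscle or neural marker was. The part of these markers in the collagen differences was not tested.

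The 18 collagens that were not tested had at most 1.10 FPKM in any library, and Col10a1 of growth plate cartilage was listed at 0 throughout. Of all 44 members, 38 had reads in each of the 6 libraries. Col24a1 stood at 0.338, 0.185 and 0.555 FPKM in the wildtype and 0.806, 0.523 and 1.10 FPKM in the Gas2l3 -/- libraries, from 9 to 54 reads. Col8a1, of vessel walls, stood at 0.260, 0.436 and 0.480 FPKM in the wildtype and 0.634, 0.580 and 0.706 FPKM in the Gas2l3 -/- libraries, from 5 to 25 reads, without overlap. Col9a3 lay the other way without overlap, at 0.755, 0.745 and 1.05 FPKM against 0.164, 0.592 and 0.461 FPKM, from 3 to 18 reads. Col6a5 was also lower without overlap, on at most 8 reads. The share of all untested genes without overlap was not taken. With no filter, 2 higher and 1 lower of 43 collagens had an unadjusted p under 0.05 (limma). The counts over 17720 genes were 454 higher and 238 lower. The kidney and lung chains Col4a3 and Col4a4 were at 0.108 to 0.325 and 0.253 to 0.651 FPKM, and the cartilage chains Col2a1 and Col11a2 at 0.0364 to 0.193 and 0.469 to 0.944 FPKM. The groups overlapped in Col6a4, Col7a1, Col9a1, Col17a1, Col19a1, Col20a1, Col22a1, Col25a1 and Col28a1, none of which exceeded 0.705 FPKM in a library.

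In the authors' deposited table of their own comparison no collagen had an adjusted p under 0.05, which 0.0735% of the genes with an adjusted p did. The authors' deposited table gave 4 collagens an unadjusted p under 0.05, against 2.95% of its genes with a p-value. These were Col23a1 with a log2 fold change of 0.69 (p = 0.00665), Col24a1 with 0.66 (p = 0.0339), Col11a1 with 0.63 (p = 0.0360) and Col27a1 with 0.52 (p = 0.0408) in the authors' deposited table. All 4 were higher in the Gas2l3 -/- libraries, and the lowest adjusted p among collagens in the authors' deposited table was 0.740, for Col23a1.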

How the data were processed

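RNA of embryonic hearts was purified, selected for poly(A) and made into 6 libraries with a kit that is not stated to keep strand, per the labels' protocols. The authors deposited FPKM per gene, on mm10 and with FastQC and DESeq2 among the tools, per the submitters' processing notes (aligner, annotation and tool versions: not given in the sources used here). They also deposited a table of their own comparison, with a log2 fold change, p-value and adjusted p-value per gene. Every value above 0 of 94235 checked gave a whole read within 0.01 when the authors' deposited FPKM were set against their mean counts.

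Genes at 1 FPKM or more in at least 3 libraries were compared on log2(FPKM + 0.5), a scale that understates changes of low genes, with limma 3.58.1 in R 4.3.3 (intensity trend, two-sided, Benjamini-Hochberg over 12121 genes, called under 0.05). The fit was tested on simulated data with independent noise for each gene and library. Those data held no GC or length trend, so they do not show how the fit behaves with the trends seen here. Chain ratios were compared with an exact permutation test. The labels do not say that replicate numbers pair the samples. Same-numbered libraries deviated together (r = 0.47, 0.44 and 0.19 for numbers 1, 2 and 3). The numbers were therefore taken as pairs in the block and the pair counts, while the main fit used the group only. Both libraries numbered 1 deviated alike with GC content (r = -0.47 and -0.48), and both numbered 2 with length (r = -0.31 and -0.42). What the shared deviation comes from was not tested. Loess trends (span 0.3) on transcript GC content and length were removed in some alternatives, for the 96.6% of tested genes with a GC value from GENCODE M21. Named members were the 20 tested collagens with the highest mean FPKM, which included every one with an unadjusted p under 0.05. From each pathway list the 3 smallest p were named, as were Serpinh1, P4ha1, Plod2, Lox and Sparc whatever their values, and from each marker list the 2 tested genes with the highest mean FPKM. The members and lists were chosen with earlier results of these data known. Chromosome positions are from GENCODE M21 on mm10.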

Additional observations from a re-analysis of the deposited data

How the results depend on the processing

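No collagen and no pathway gene was called in any alternative run, and the 8 chain ratios kept their directions in all of theirs. Over 19 alternatives, or 18 where the stricter filter left a gene out, 6 of 26 tested collagens kept their direction throughout: Col5a2, Col11a1, Col16a1, Col23a1 and Col27a1 higher and Col13a1 lower. For 3 of them the value came near 0, with Col16a1 at 0.0029 and Col5a2 at 0.024 without wildtype replicate 2 and Col13a1 at -0.057 with the GC and length trends removed. Several of these alternatives could not turn a direction. The replicate block, no intensity trend, a looser adjusted p and the other filters leave a gene's log2 fold change as it was. With the trends removed, adding the block repeats the same value. The replicate block changed no call on collagens. The ratios of Col4a5 to Col4a6 and Col6a1 to Col6a2 were 0.61 and 0.26 within pairs. These repeat the group differences, since a mean difference over complete pairs equals that of the groups. The filter on FPKM left 18 low collagens untested. A common total of FPKM moved the median of all genes to 0.15, above the collagen median of 0.12.

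The number of collagens with higher means was 11 of 26. It was 19 with a common total, where 67.0% of all genes were higher. With the GC and length trends removed it was 20, with or without the replicate block. It was 25 with library weights, 22 with the block and without wildtype replicate 3, and 24 with the trends removed and without that library. It ranged from 7 (without wildtype replicate 2) to 24 (without wildtype replicate 3) when each library was left out, and was 19 without Gas2l3 -/- replicate 2. Other filters changed which collagens were counted, with 21 of 43 higher with no filter and 6 of 16 with a mean of 5 FPKM required. The 2 collagens with an unadjusted p under 0.05 became 1 with a mean of 5 FPKM, a common total, quantile normalization or no intensity trend, 4 with the trends removed, 5 with the block as well, 9 with weights, 7 in both settings that combined a correction with leaving out wildtype replicate 3, and 0 (without Gas2l3 -/- replicate 3) to 3 when each library was left out. Over all genes, 0 calls became 1 with the trends removed, 2 with weights and 33 with the block and without wildtype replicate 3. For the weights, limma's gene-by-gene method was used because the default stopped before it converged. It gave weights of 0.45, 1.68 and 0.16 to wildtype replicates 1 to 3. Gas2l3 -/- replicates 1 to 3 had 1.63, 0.96 and 5.26.

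Library weights moved the medians to 0.60 for all collagens, 0.63 for the fibrillar and 0.73 for the Col6 genes, 0.37 for folding, 0.32 for export and 0.46 for receptors. The folding median was -0.094 to 0.37 and the export median 0.10 to 0.23 with each library left out. Export was at 0.32 with a common total and 0.24 with quantile normalization, receptors at 0.51 with a mean of 5 FPKM, and regulators at 0.27 with a common total.

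Several genes with lower means turned higher. With library weights these were Col1a1 (0.31), Col1a2 (0.42), Col4a1 (0.85), Col4a2 (0.81), Col4a6 (0.0037), Col5a1 (0.63), Col5a3 (0.40), Col6a1 (0.61), Col6a2 (0.34), Col6a6 (0.85), Col9a2 (0.37), Col14a1 (0.69), Col15a1 (0.34), Col18a1 (0.49), Mmp15 (0.022), Pcolce (0.13) and Serpinh1 (0.20). With the GC and length trends removed, with or without the replicate block, they were Col1a2 (0.15), Col4a1 (0.23), Col4a2 (0.17), Col5a1 (0.12), Col5a3 (0.080), Col6a1 (0.16), Col6a6 (0.051), Col9a2 (0.28), Col18a1 (0.15) and Serpinh1 (0.031). A common total turned Col1a2 (0.12), Col4a1 (0.13), Col4a2 (0.017), Col6a1 (0.12), Col6a6 (0.091), Col9a2 (0.13), Col14a1 (0.078), Col18a1 (0.011) and Serpinh1 (0.012). In that setting 67.0% of all genes were higher. Quantile normalization turned Col1a2 (0.13), Col4a1 (0.15), Col4a2 (0.012) and Col6a1 (0.10), and voom turned Col6a6 (0.013). The block without wildtype replicate 3 turned Col1a1 (0.14), Col1a2 (0.25), Col4a1 (0.36), Col4a2 (0.31), Col5a1 (0.24), Col5a3 (0.19), Col6a1 (0.28), Col6a2 (0.11), Col6a6 (0.13), Col9a2 (0.26), Col18a1 (0.24), Pcolce (0.17) and Serpinh1 (0.14). Removing the trends without that library turned Col1a1 (0.29), Col1a2 (0.41), Col4a1 (0.51), Col4a2 (0.45), Col5a1 (0.38), Col5a3 (0.21), Col6a1 (0.39), Col6a2 (0.21), Col6a6 (0.38), Col9a2 (0.31), Col14a1 (0.21), Col15a1 (0.061), Col18a1 (0.33), Pcolce (0.14) and Serpinh1 (0.15).

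With each library left out in turn, these genes crossed 0: Col1a1 (-0.72 to 0.34), Col1a2 (-0.39 to 0.43), Col3a1 (-0.088 to 0.59), Col4a1 (-0.54 to 0.55), Col4a2 (-0.71 to 0.49), Col4a5 (-0.21 to 0.35), Col5a1 (-0.62 to 0.43), Col5a3 (-0.68 to 0.25), Col6a1 (-0.40 to 0.43), Col6a2 (-0.66 to 0.23), Col6a3 (-0.27 to 0.78), Col6a6 (-0.54 to 0.40), Col8a2 (-0.030 to 0.50), Col9a2 (-0.29 to 0.38), Col12a1 (-0.043 to 0.57), Col14a1 (-0.52 to 0.21), Col15a1 (-1.08 to 0.090), Col18a1 (-0.50 to 0.37), Col26a1 (-0.44 to 0.79), Adamts14 (-0.28 to 0.45), Mmp15 (-0.68 to 0.033), Pcolce (-0.48 to 0.21), Serpinh1 (-0.38 to 0.21) and Sparc (-0.014 to 0.42). The cause was not tested.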
